A study of Mus musculus with 24 samples.

Results

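The genes described here are the replication-dependent histone genes of the mouse as they appear in RNA sequencing of the aorta. Rows were chosen by gene name, as those that start with Hist1h to Hist4h or carry the newer names of the H1f, H2ac, H2bc, H3c and H4c series, and 68 of the 40141 rows of the deposited table matched. By name, 10 of the 68 genes belong to linker histone H1, 18 to H2A, 16 to H2B, 12 to H3 and 12 to H4. Of these, 2 H2A genes, H2ac14 and Hist1h2al, are annotated as pseudogenes. The histone cluster of chromosome 13 held 54 of them (GRCm38, chr13:21715763-23934156), the cluster of chromosome 3 held 9 (GRCm38, chr3:96219865-96269141), and 5 lay elsewhere. The name pattern also took in 4 H1 genes outside both clusters that are not replication-dependent. H1f0 and H1f10 are linker histones made throughout the cell cycle, H1f8 belongs to the oocyte and H1f7 to the testis, so that values are also given for the other 64 genes where it matters. The 2 pseudogenes stay among these 64.

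The study asked what loss of Cthrc1, a secreted glycoprotein of injured arteries, does in aortas of mice treated to provoke aortic dissection. The 24 libraries were made from aortas of wild-type (WT) or Cthrc1 knockout (cthrc1-/-) mice given PBS or Ang-II/BAPN, 6 libraries for each genotype and treatment. Ang-II is the pressor peptide angiotensin II and BAPN a compound that blocks cross-linking of collagen and elastin by lysyl oxidases. Each set of 6 held 3 libraries with a title that starts with F and 3 without, a letter that the labels do not explain. The labels give no age, strain, dose, time or construction of the knockout, and do not say whether animals were pooled or came from separate litters. The p-values therefore describe variation among these libraries, and that variation may be technical.

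Most histone mRNA of a dividing cell comes from these clustered genes, which are transcribed in S phase, when new DNA has to be packed into nucleosomes. Their mRNAs end without a poly(A) tail, just after a short stem-loop that is bound by the stem-loop binding protein SLBP and cut with the help of the U7 ribonucleoprotein. Several of the genes also give longer transcripts with a poly(A) tail in cells that have stopped dividing. The stem-loop is therefore the feature by which the 68 gene models can be told apart.

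A stem-loop was looked for in the GENCODE M21 transcripts as GGNNCTTTTNANNNCC on the sense strand, and 41 of the 68 genes held one, against 0.325% of 58797 protein-coding transcripts. It lay 21 to 58 bases after the stop codon, with a median of 31.0. The following examples, with their 16-base stem-loop in capitals and the flanking bases in lower case, belong to 7 of the 8 genes with a stem-loop and a mean above 1 FPKM, the level per length used further on.
H1f2: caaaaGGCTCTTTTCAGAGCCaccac
H2bc8: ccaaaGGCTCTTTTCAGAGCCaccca
H2ac18: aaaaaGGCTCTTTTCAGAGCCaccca
H3c14: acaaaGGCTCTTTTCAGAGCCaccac
H4c8: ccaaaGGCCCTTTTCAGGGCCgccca
H4c9: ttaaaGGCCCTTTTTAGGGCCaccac
Hist1h4m: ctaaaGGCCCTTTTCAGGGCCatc
The form in H1f2, H2bc8, H2ac18 and H3c14 was found in 24 genes. The form in H4c8 and Hist1h4m was found in 6 genes and that in H4c9 in 2, and the 3 H4 genes shown differ from the other examples in the paired bases of the stem.

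Gene models fell into 3 kinds by where they end. In 22 genes the model ended at most 100 bases after the stem-loop, in 19 it ran further, and in 27 it held no stem-loop. H1f2 is of the second kind, with 840 bases after its stem-loop and a poly(A) signal (AATAAA or ATTAAA) in the last 50 bases. H2bc21 and H1f0 had no stem-loop in the model and a poly(A) signal in the last 50 bases. H2bc4 had a model of 2 exons and no stem-loop. A model without a stem-loop does not show that the gene lacks one, since some of the 27 models are short and may stop before it. The model of H4c12 had 312 bases, for example, against 391 in H4c6, an H4 gene whose model holds a stem-loop. A poly(A) signal near the end stood in 8 of the 19 models that run past the stem-loop, in 2 of the 22 that end at it and in 7 of the 27 without one, against 50.2% of all protein-coding transcripts.

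Histone transcripts were scarce in all 24 libraries. The 68 genes together took 11504 to 32071 counts per library, which was 0.0238% to 0.0444% of library totals of 39002048 to 82040703 counts. H1f0, H2bc4 and H1f2 alone made up 85.9% of these counts, and the 5 most abundant genes 91.5%. Of the other genes many were near the floor, since 37 of the 68 had a mean below 10 counts per library and 28 a mean below 0.1 CPM (counts scaled to library depth by the trimmed mean of M values).

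The labels give total RNA as the molecule and name a total RNA kit, but their protocol also calls the work mRNA sequencing. Most histone genes whose models end at the stem-loop were low, with H2ac18 and H4c8 as exceptions. The 22 genes whose models end there summed to 1.87 to 36.2 CPM per library, against 51.1 to 167 CPM for the 19 that run past it, of which H1f2 alone gave 31.6 to 152 CPM. Other RNAs without a poly(A) tail were also low. Rn7sk, the RNA of the 7SK particle that holds back transcription elongation, ranged from 0.173 to 32.7 CPM, and 15 such RNAs together from 1.20 to 151 CPM. What part library preparation, gene models or counting had in these low levels was not tested.

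Per length, a few genes stood far above the rest. Mean FPKM, the deposited value scaled by gene length and library depth, was 65.2 ± 13.1 (SD, n = 24) for H1f0, 53.2 ± 13.1 for H2bc4 and 37.6 ± 17.8 for H1f2. H2bc8 followed at 9.81 ± 2.61 FPKM, then H2ac18 at 6.96 ± 9.70, H2bc21 at 3.95 ± 1.79 and H4c8 at 3.70 ± 2.29. The ranges of neighbours in that order overlapped. Within libraries, H1f2 was above H2bc8 in all 24, and the order of the other neighbours changed from library to library. The SD of H2ac18 exceeded its mean.

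**Figure D1:**
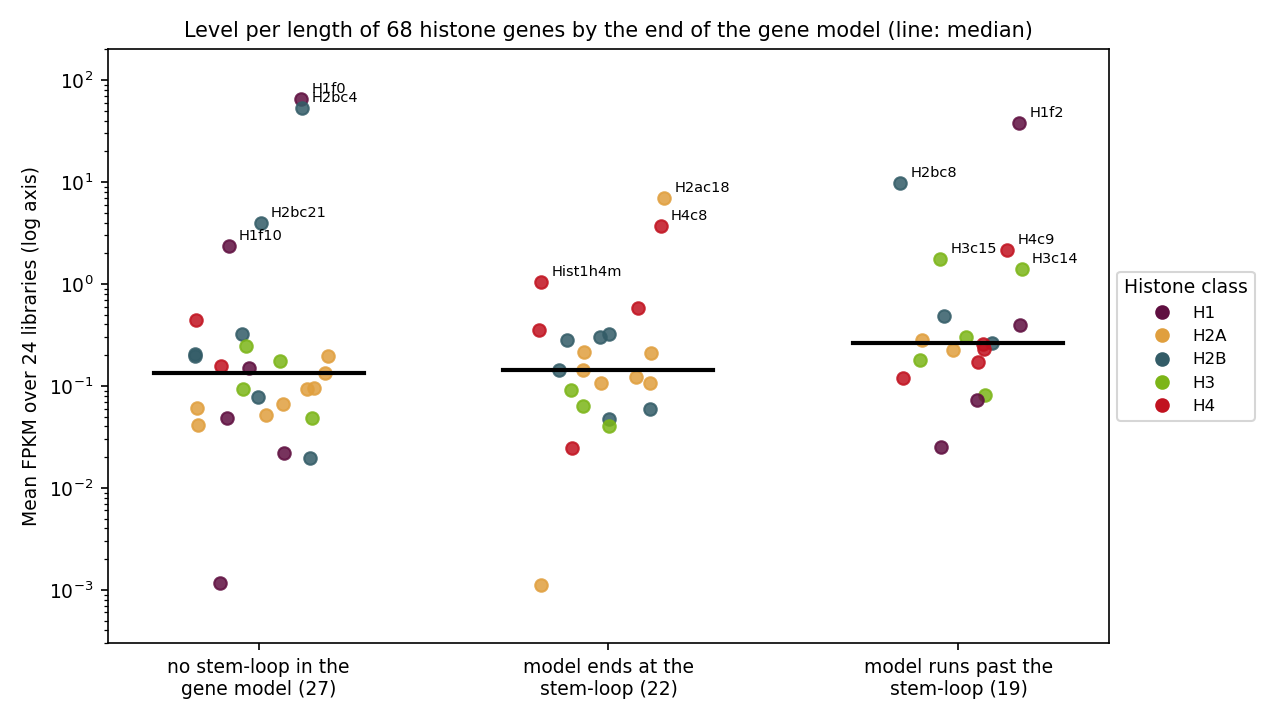
Mean FPKM over 24 libraries on a log axis for 68 histone genes, grouped by where the gene model ends and coloured by histone class. Lines are medians, at 0.133 FPKM for models without a stem-loop, 0.142 for models that end at it and 0.266 for models that run past it. Genes above 1 FPKM are named.

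The medians of the 3 kinds were close together and low, and the abundant genes were exceptions within their kind. Of the models without a stem-loop 4 of 27 exceeded 1 FPKM, which were H1f0, H2bc4, H2bc21 and H1f10. Of the models that run past the stem-loop 5 of 19 did, which were H1f2, H2bc8, H4c9, H3c15 and H3c14. Of the models that end at it 3 of 22 did, which were H2ac18, H4c8 and Hist1h4m.

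H2A and H2B genes often lie head to head and share the stretch between their start sites. The 68 genes held 12 such pairs with at most 400 bases between the starts. In 3 of them the H2B gene was far above its H2A partner in all 24 libraries. H2bc4 had 31.6 to 73.4 FPKM, and H2ac6, whose start lies 250 bases away, 0.0848 to 0.423 FPKM. H2bc8 had 4.77 to 15.2 FPKM and H2ac8, 175 bases away, 0.0264 to 0.894 FPKM. H2bc21 had 1.28 to 8.78 FPKM and H2ac20, 238 bases away, 0 to 0.562 FPKM. In the other 9 pairs the mean of both partners was at most 0.325 FPKM.

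**Figure D2:**
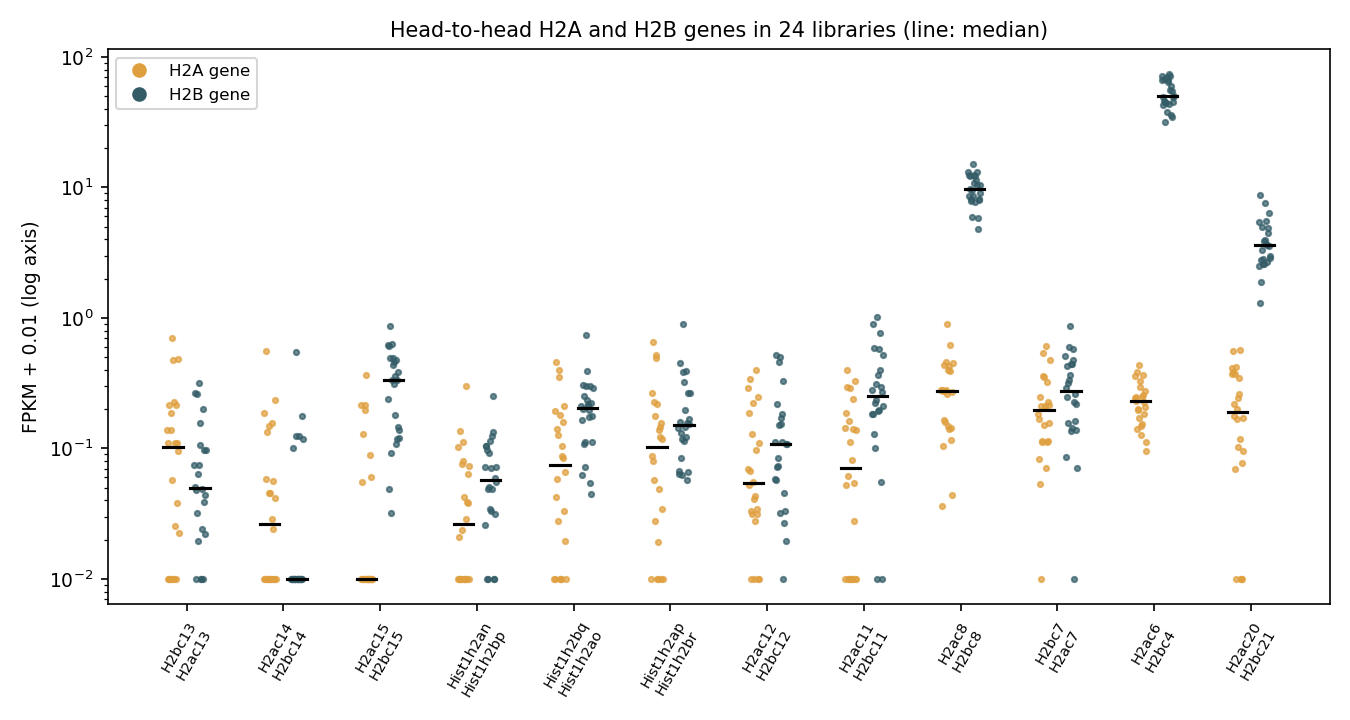
FPKM in each of 24 libraries for the H2A gene (left, orange) and H2B gene (right, blue) of 12 head-to-head pairs, on a log axis after adding 0.01; lines are medians. In the pairs of H2bc8, H2bc4 and H2bc21 all 24 H2B values lie above all 24 H2A values.

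Between the starts of H2bc4 and H2ac6, and of H2bc21 and H2ac20, lies 1 promoter region for both genes. These regions are shown because the partners share them, with the largest and the smallest ratio of mean FPKM among the 3 pairs. They are RefSeq promoter windows of the H2A gene, from 250 bases before to 50 after its start, on the minus strand of GRCm38.p6, with motifs in capitals.
H2ac6, chr13:23683910-23684209: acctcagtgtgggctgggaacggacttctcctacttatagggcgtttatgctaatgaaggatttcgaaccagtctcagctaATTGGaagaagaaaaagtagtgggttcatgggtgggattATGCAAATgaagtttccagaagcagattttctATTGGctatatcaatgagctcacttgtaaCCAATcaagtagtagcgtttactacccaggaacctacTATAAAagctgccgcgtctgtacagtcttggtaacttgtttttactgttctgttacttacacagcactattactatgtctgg
H2ac20, chr3:96220831-96221130: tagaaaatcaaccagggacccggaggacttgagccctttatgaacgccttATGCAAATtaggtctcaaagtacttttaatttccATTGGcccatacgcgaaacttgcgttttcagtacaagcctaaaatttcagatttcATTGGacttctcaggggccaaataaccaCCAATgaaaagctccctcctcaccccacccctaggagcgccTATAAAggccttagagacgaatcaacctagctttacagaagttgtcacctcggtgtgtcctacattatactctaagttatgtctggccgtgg

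Both windows held the octamer ATTTGCAT, which Oct1 binds in H2B promoters, as ATGCAAAT on the strand shown. Both also held CCAAT boxes in either direction and 1 TATAAA. Motifs were searched on both strands, and no match in these windows overlapped another. Among 54 promoter windows of 53 histone genes, 83.3% held CCAAT, against 37.4% of all 32851 windows. TATAAA stood in 53.7% against 13.6%, and ATTTGCAT in 20.4% against 1.74%. The octamer was found in 50% of H2B and 38.5% of H2A windows and in no H1, H3 or H4 window, and CCAAT in 33.3% of H4 windows and 100% of H2A, H2B and H3 windows. A match describes letters and not a bound factor.

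The libraries carried their labels in the targeted gene and the tissue. Cthrc1 had 1.52 to 2.47 CPM in WT with PBS and 26.5 to 112 CPM in WT with Ang-II/BAPN, against 0.164 to 0.547 and 1.79 to 10.5 CPM in the knockout, where reads of the gene were still counted. The 6 smooth muscle markers summed to 1491 to 29220 CPM and all libraries held them. Common variation between libraries of a group was high, with a biological coefficient of variation of 57.0%. A set of 5 libraries stood apart by Rn7sk, at 4.85 to 32.7 CPM against 0.173 to 1.45 CPM in the other 19. They were WT PBS F replicates 2 and 3, knockout PBS F replicate 2, knockout PBS replicate 2 without F and knockout Ang-II/BAPN F replicate 1. Another 4, all of WT with Ang-II/BAPN (replicates 1 to 3 without F and replicate 2 with F), held intestinal transcripts (Clca1, Agr2, Car1, Lypd8 and Cyp2c55) above 50 CPM in sum.

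Ang-II/BAPN in wild type moved few histone genes, and not in 1 direction. Of the 68 genes 46 had enough counts to be tested, and 3 rose and 2 fell at an adjusted p under 0.05, with edgeR's quasi-likelihood test and Benjamini-Hochberg adjustment over 24623 genes. The percent of all tested genes called was 24.8%, with 13.3% higher and 11.5% lower, so the share of histone genes called was below that of all genes. Many of the 46 had few counts, such as means of 3.92 for Hist1h2ao and 4.21 for H2ac11, which leaves little power to call a change. Of the 68 genes 37 had a mean below 10 counts, and only 22 of the 68 were left untested. The median log2 fold change of the 46 was 0.134, and that of all genes 0.0119. All 44 tested genes without H1f0 and H1f10 had a median of 0.215. The 2 genes with at least 2 CPM were H1f2, which rose, and H2bc21, which fell. Without the 4 libraries with intestinal transcripts 1 histone gene was called in wild type. That fit, here and below, kept only F replicates 1 and 3 of the treated WT libraries. They were compared with PBS libraries of F titles only. Calls lost in it cannot be told apart from the loss of libraries and of the titles without F. H4c9, Hist1h2bq and H3c13 also passed below that level and are named after their values were seen.

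H1f2 codes for a somatic linker histone that binds DNA between nucleosomes. In WT with PBS it had 35.8, 42.9 and 59.0 CPM (lowest, median and highest of 6), and in WT with Ang-II/BAPN 48.7, 68.03 and 152 CPM. Treated libraries lay above all PBS libraries in 4 of 6, and the groups overlapped. The log2 fold change was 0.79 ± 0.25 (SE), with an adjusted p of 0.0266 by edgeR. The highest value, in F replicate 2, came from a library with intestinal transcripts. In the knockout the medians were 58.5 CPM with PBS and 64.1 CPM with Ang-II/BAPN, a log2 difference of 0.02 ± 0.25 (adjusted p = 0.990). The interaction, which tests whether the treatment effect differs between genotypes, was -0.77 ± 0.35 with an adjusted p of 0.365. The call was lost when single WT libraries were left out, with an adjusted p of 0.0949 without treated F replicate 2, 0.0595 and 0.0563 without treated replicates 1 and 3 of the titles without F, and 0.0514 and 0.0668 without PBS F replicate 3 and PBS replicate 1 without F. It was also lost without the 5 libraries high in Rn7sk (0.76, adjusted p = 0.0742) and without the 4 with intestinal transcripts (0.86, adjusted p = 0.113).

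The log2 fold change of H1f2 was also taken in each title set. With F titles it was 1.37 ± 0.36 (adjusted p = 0.0153), and without F 0.20 ± 0.35 (adjusted p = 0.797). The difference between title sets over both genotypes was 0.46 ± 0.35, with an adjusted p of 0.964.

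H2bc21 codes for an H2B protein and, as shown, its model runs on to a poly(A) signal. In WT it fell from 9.30, 13.98 and 18.6 CPM with PBS (lowest, median and highest of 6) to 6.49, 7.79 and 10.4 CPM with Ang-II/BAPN. In the knockout it fell from 7.67, 15.1 and 26.2 CPM to 5.02, 7.52 and 9.84 CPM. In WT 5 of 6 treated libraries were below all PBS libraries, in the knockout 3 of 6, and the groups overlapped in both. The log2 fold changes were -0.78 ± 0.23 (adjusted p = 0.0188) in WT and -1.16 ± 0.23 (adjusted p = 0.00268) in the knockout, where it was the only histone gene called. The interaction was -0.38 ± 0.33 with an adjusted p of 0.694. The fall in the knockout passed with every single library left out, and the fall in WT was lost without PBS replicate 3 of the titles without F (adjusted p = 0.0530) and without the 4 libraries with intestinal transcripts (adjusted p = 0.169). It was also lost with no filter on low counts (adjusted p = 0.0518) and with limma on log2(FPKM + 1) (adjusted p = 0.208).

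H4c9 codes for the H4 protein that nearly all histone H4 genes share. It had 0.393, 0.755 and 1.80 CPM in WT with PBS and 1.15, 1.68 and 7.80 CPM with Ang-II/BAPN, and all 6 treated libraries were above the PBS median. The log2 fold change was 1.47 ± 0.40 (adjusted p = 0.0118). The highest library, F replicate 1 of WT with Ang-II/BAPN, was 7.80 CPM and also had the highest red cell markers, at 34260 CPM in sum. Without it, the log2 fold change was 1.05 and the adjusted p 0.0524. In the knockout H4c9 changed by 0.44 ± 0.40 (adjusted p = 0.572), and the interaction was -1.03 ± 0.56 (adjusted p = 0.473).

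**Figure D3:**
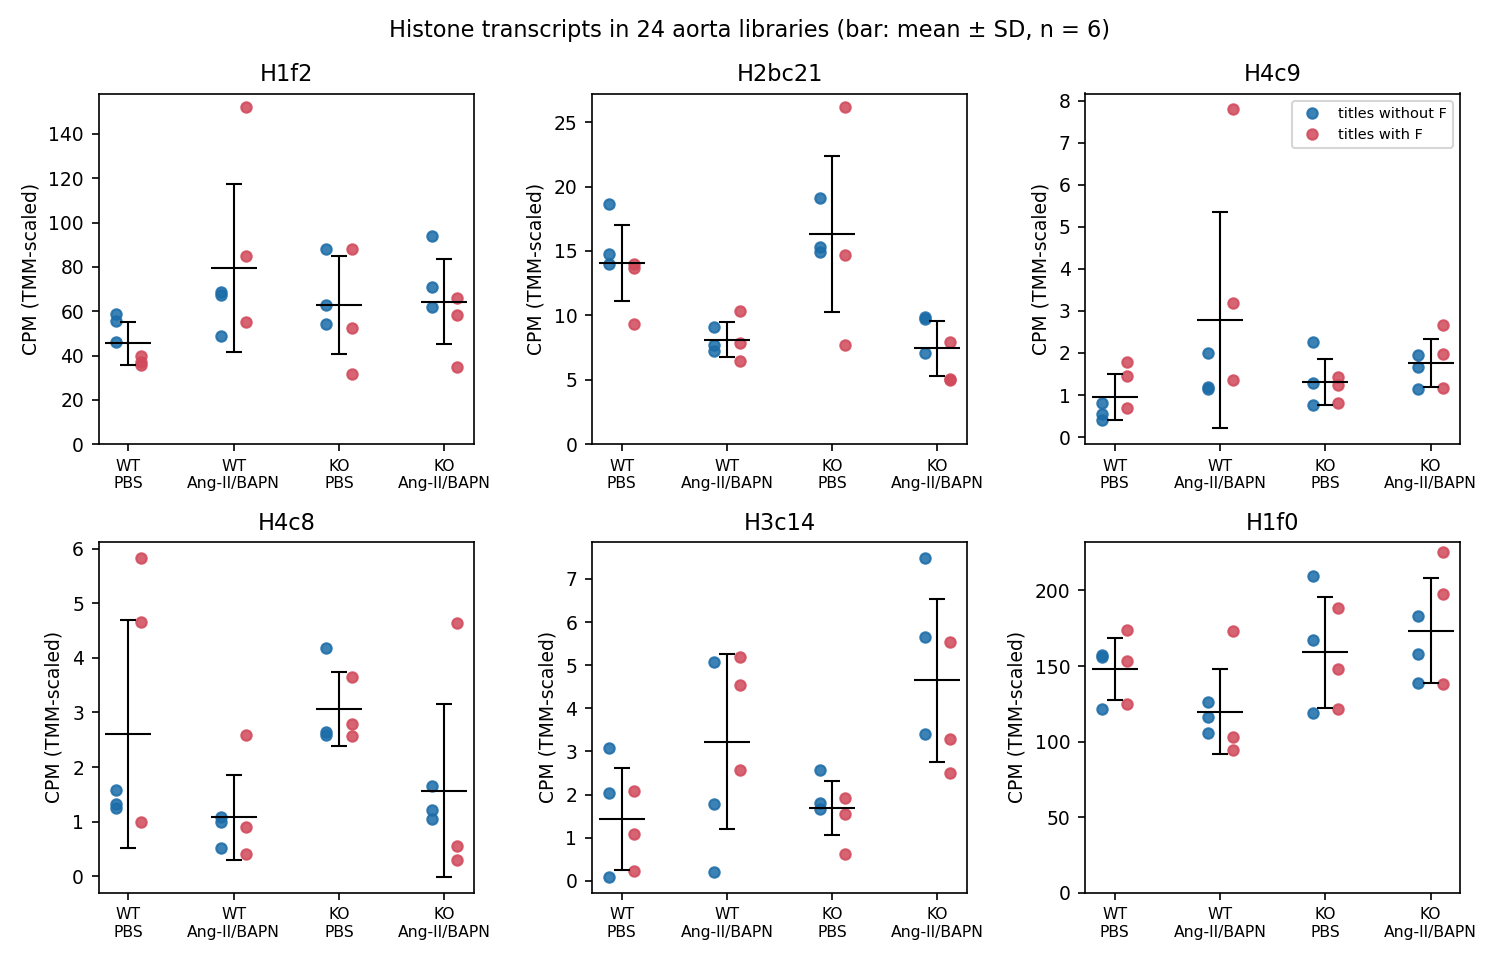
CPM of 6 histone genes in 24 libraries by genotype and treatment, with titles without F in blue and titles with F in red; bars are means with SD (n = 6). H2bc21 is lower in both treated groups, with means of 8.12 and 7.44 CPM against 14.1 and 16.3 CPM under PBS, and H1f2 in wild type is higher at 79.5 against 45.6 CPM.

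Hist1h2bq, an H2B gene of the chromosome 13 cluster, rose from 6 to 20 counts in WT with PBS to 18 to 107 counts with Ang-II/BAPN, a log2 fold change of 1.30 ± 0.45 (adjusted p = 0.0419). It shares 92.4% of its 150-base windows with another gene, so that reads of near-identical copies could have been split between them, and its call was lost in 16 of 24 fits that left out 1 library, at an adjusted p of 0.0503 to 0.121. H3c13, an H3 gene of the chromosome 3 cluster, had 0 to 14 counts in WT with PBS and 0 to 5 with Ang-II/BAPN, where 4 of 6 libraries held none. Its log2 fold change of -3.61 ± 1.13 (adjusted p = 0.0264) rests on 14 counts or fewer per library and was lost without PBS F replicate 3 (adjusted p = 0.0860) and without treated F replicates 1 or 3 (adjusted p = 0.0516 in both), and a count of 0 allows up to 3 counts. It overlaps Gm20628 on the opposite strand over its full 488 bases. In the knockout PBS libraries without F both genes had the same counts, 13, 9 and 14. They were also equal in knockout PBS F replicate 3 (10), WT PBS F replicate 2 (3) and WT PBS replicate 2 without F (4). Knockout Ang-II/BAPN replicates 2 and 3 without F also had equal counts, 17 and 7. In the remaining libraries Gm20628 had more counts than H3c13. Gm20628 had 22 to 54 counts in the 4 treated WT libraries where H3c13 had none. Whether the same reads were counted for both genes was not tested.

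Among the other abundant histone genes, H1f0, H2bc4 and H2bc8 gave no call in either treatment comparison. H1f0 had medians of 155 and 111 CPM in WT with PBS and Ang-II/BAPN and 158 and 171 CPM in the knockout, and its log2 changes were -0.30 ± 0.18 (adjusted p = 0.239) and 0.12 ± 0.18 (adjusted p = 0.771). H2bc4 had medians of 56.6 and 56.4 CPM in WT and 80.0 and 72.6 CPM in the knockout, with log2 changes of 0.06 ± 0.16 (adjusted p = 0.865) and -0.13 ± 0.16 (adjusted p = 0.708). H2bc8, which like them is present in every library, had log2 changes of 0.25 ± 0.20 in WT and -0.05 ± 0.20 in the knockout.

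In the knockout 1 of the 46 tested genes was called under Ang-II/BAPN, against 11.4% of all genes, of which 7.02% were higher and 4.40% lower. Without the 5 libraries high in Rn7sk 5 histone genes were called. The median log2 fold change of the 46 was 0.150, against -0.0307 for all genes. H3c14, an H3 gene, had 0.629, 1.74 and 2.57 CPM with PBS and 2.501, 4.48 and 7.49 CPM with Ang-II/BAPN, and 5 of 6 treated libraries were above all PBS libraries. Its log2 fold change was 1.46 ± 0.67 with an adjusted p of 0.182. All of its 150-base windows occur in another gene, since it lies in Gm20634. H2ac10, an H2A gene named after its values were seen, was the only tested member whose treated libraries did not overlap with PBS, at 0.0932 to 0.512 CPM against 0 to 0.0898 CPM. Of all tested genes 6.9% did not overlap in that comparison. H2ac10 had 6 to 26 counts in the treated knockout libraries and 0 to 6 counts with PBS. It passed the filter on low counts through the treated knockout libraries, so the lack of overlap is not independent of the filter. The log2 fold change of H2ac10 was 2.16 ± 0.93 with an adjusted p of 0.155 by edgeR.

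H2ac18, an H2A gene of the chromosome 3 cluster, differed widely between libraries of the same group. It had 125 to 1111 counts in the knockout with PBS, while 4 of 6 knockout libraries with Ang-II/BAPN held 0. Knockout Ang-II/BAPN F replicate 1, one of the 5 libraries high in Rn7sk, held 1099. In WT with PBS the 3 libraries with F held 267 to 928 counts and the 3 without F 1 to 19. With Ang-II/BAPN, WT libraries held 1 to 377 counts. In the 5 libraries high in Rn7sk its median was 17.4 CPM (3.01 to 28.3), against 0.189 CPM (0 to 13.6) in the other 19. The near-identical H2ac19 had at most 1 count in any library, 87.0% of the windows of H2ac18 occur in another gene, and Gm20634 overlaps it on the same strand over 529 bases. Gm20633, with 106 to 599 counts per library, overlaps H2ac18 on the opposite strand over 586 bases. Whether reads were counted for more than 1 of these genes was not tested. The log2 changes of H2ac18 were -1.85 ± 1.48 in WT (adjusted p = 0.390) and -2.002 ± 1.36 in the knockout (adjusted p = 0.412). Without knockout Ang-II/BAPN F replicate 1 the knockout value was -8.19 with an adjusted p of 0.00520, a fitted value against libraries mostly at 0.

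H4c8 was higher in all 5 libraries high in Rn7sk than in the other 19, and H1f10 in 4 of the 5. H4c8, an H4 gene whose model ends 46 bases after the stem-loop, had 3.65 to 5.83 CPM in the 5 libraries high in Rn7sk and 0.289 to 2.78 CPM in the other 19, with no overlap, as for 11.6% of all tested genes. H1f10 had 3.68 to 12.9 CPM in the 5 and 0.639 to 4.78 in the other 19, which overlap. Within the 5 the order of neither gene followed that of Rn7sk. H1f2, with a poly(A) signal, had 31.6 to 54.3 CPM in the 5 and 39.9 to 152 in the other 19. With all libraries H4c8 had log2 changes of -1.12 ± 0.56 in WT and -0.99 ± 0.56 in the knockout (adjusted p = 0.156 and 0.300). Without the 5 libraries the knockout value was -1.80 (adjusted p = 0.0218) and the WT value -0.13, and without knockout Ang-II/BAPN F replicate 1 alone the knockout value was -2.08 (adjusted p = 0.00605).

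Genes of mitosis and most genes of S phase rose with the same treatment. All 12 mitotic genes rose in both genotypes, with median log2 fold changes of 3.15 and 2.69. Mki67, the Ki-67 proliferation marker, had a mean of 7.87 ± 5.67 CPM in WT with PBS and 63.1 ± 20.3 CPM with Ang-II/BAPN, and 6.81 ± 1.997 and 52.1 ± 23.03 CPM in the knockout. Of 28 genes of S phase and DNA replication 23 rose in WT and 18 in the knockout, with medians of 1.19 and 1.09. Ccna2, which codes for cyclin A2, rose by 3.13 ± 0.42 and 2.45 ± 0.41 on the log2 scale. Of 14 histone chaperones and assembly factors 6 rose in WT and 3 in the knockout, Chaf1b and Asf1b among them, against the 13.3% and 7.02% of all genes that were higher. These lists were chosen with earlier results of these data known. Beside them, the 46 histone genes, many of them at low counts, had medians of 0.134 and 0.150, and 5 and 1 were called.

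**Figure D4:**
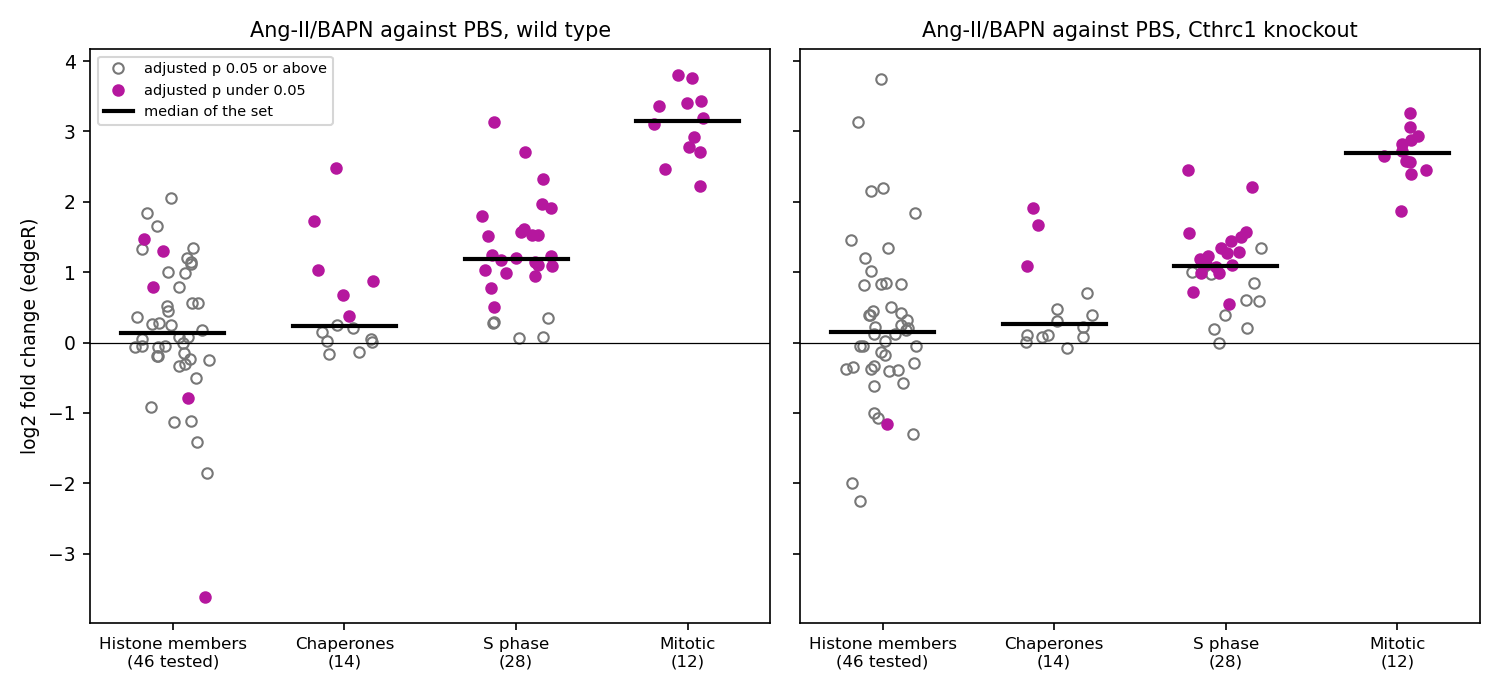
Log2 fold change of Ang-II/BAPN against PBS in wild type (left) and Cthrc1 knockout (right) for 46 tested histone genes and the lists of histone chaperones, S phase genes and mitotic genes, with genes at an adjusted p under 0.05 filled. Black lines are medians; the histone median is 0.134 and 0.150, and those of the S phase list 1.19 and 1.09.

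Of 15 factors that transcribe or process histone mRNA, 3 rose and 1 fell in WT and 1 rose in the knockout, where 24.8% and 11.4% of all genes were called, so that these counts are close to those of all genes. Slbp, which codes for the stem-loop binding protein, had a mean of 18.8 ± 3.53 CPM in WT with PBS and 28.5 ± 10.2 CPM with Ang-II/BAPN (log2 fold change 0.60 ± 0.22, adjusted p = 0.0493). Eri1, an exonuclease that acts on the histone stem-loop, rose by 1.26 ± 0.25 in WT (adjusted p = 0.000910) and 0.82 ± 0.24 in the knockout (adjusted p = 0.0334). Cstf2 rose and Srrt fell in WT, by 0.78 ± 0.22 and -0.53 ± 0.12 on the log2 scale. A list of 11 histone variants outside the replication-dependent set includes H1f0 and H1f10, which are also among the 68 genes. In it H2az1 and Cenpa rose in both genotypes, and H2az2 and Macroh2a2 fell in WT, beside the same 24.8% and 11.4% of all genes.

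Other cell types also moved with treatment in these bulk libraries, where fewer cells of a type and less RNA per cell cannot be told apart. All 8 macrophage markers rose in both genotypes, and their sum went from 94.8 to 259 CPM in WT with PBS to 840 to 4668 CPM with Ang-II/BAPN, and from 127 to 325 to 883 to 1938 CPM in the knockout. All 6 neutrophil markers rose in both, from 1.41 to 4.97 CPM in sum to 39.4 to 259 CPM in WT and from 1.88 to 4.26 to 22.4 to 185 CPM in the knockout. The 6 smooth muscle markers all fell in WT, from 16860 to 22890 CPM in sum to 1491 to 5509 CPM, and 2 of 6 fell in the knockout. All 6 T cell and all 6 B and plasma cell markers rose in WT, from 2.86 to 13.4 CPM to 11.5 to 76.6 CPM and from 3.39 to 14.2 CPM to 11.5 to 142 CPM in sum, while 1 and none of them rose in the knockout. Of 6 endothelial markers 5 fell in each genotype. Of 6 fibroblast markers 2 rose and 1 fell in WT, and 5 rose in the knockout. Red cell markers did not pass in either genotype but reached 34260 CPM in sum in 1 treated WT library and 16140 CPM in 1 treated knockout library. Of 6 kidney markers 2 fell in the knockout, and their sum reached 2257 CPM in 1 treated WT library. Intestinal markers rose in WT, 7 of 8, from 2.08 to 6.14 CPM in sum to 0.900 to 255 CPM. The part of these changes in the histone values was not tested.

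Between genotypes under PBS, none of the 46 genes was called by edgeR, 4 had an unadjusted p under 0.05, and 0% of all genes were called. H2bc4 had an unadjusted p of 0.0140 and H2bc8 of 0.0196, both higher in the knockout, with adjusted p of 0.9999. DESeq2 called none of the 46, with 4 at an unadjusted p under 0.05. Under Ang-II/BAPN, H3c13 was called, with 0 to 5 counts in WT and 0 to 17 in the knockout, a log2 fold change of 4.02 ± 1.15 and an adjusted p of 0.0464, against 6.13% of all genes called. That call was lost in 28 of 35 alternatives, and the overlap of H3c13 with Gm20628 applies to it as well. H1f0 was 0.53 ± 0.18 higher in the knockout (adjusted p = 0.0848). H2ac10 was the 1 member of 46 that did not overlap between genotypes here, against 3.16% of all genes, with a log2 difference of 2.40 ± 0.94 and an adjusted p of 0.123. It had 0 to 6 counts in WT and 6 to 26 in the knockout, the group through which it passed the filter on low counts.

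The interaction between genotype and treatment called none of the 46 by edgeR, with 3 at an unadjusted p under 0.05, and 0% of all genes. DESeq2 called none of them either. The interaction between title set and treatment also called none of the 46, with 4 at an unadjusted p under 0.05, 0% of all genes, and none by DESeq2. Within title sets, 4 histone genes were called in WT with F titles, which were H1f2, Hist1h2bq and Hist1h2br higher and H3c13 lower, and none without F, with 3 at an unadjusted p under 0.05. Background was 13.9% and 8.61% of genes. In the knockout, H2bc21 was called with F titles and none without, with 4 at an unadjusted p under 0.05, against 6.52% and 1.70% of genes.

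The 64 histone genes without H1f0, H1f7, H1f8 and H1f10 had a summed level of 144 ± 15.4 CPM (SD, n = 6) in WT with PBS and 178 ± 42.8 CPM with Ang-II/BAPN. In the knockout the sums were 195 ± 19.6 and 179 ± 25.6 CPM. Ranges were 125 to 167, 127 to 232, 175 to 222 and 145 to 222 CPM in that order. The WT and knockout ranges under PBS did not overlap in CPM. As unscaled shares of the library counts they did overlap, at 0.0113% to 0.0160% in WT and 0.0137% to 0.0247% in the knockout. H2bc4 and H1f2 hold most of this sum. No test was run on it because its members were chosen with results known.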

How the data were processed

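Aortas of mice were sequenced as 24 libraries, and the authors deposited 1 table that gives each gene a raw count and an FPKM value in every library. Per the labels' protocols, library preparation used a kit for stranded total RNA, with 150-base paired-end reads; per the submitters' processing notes HISAT2, StringTie and DESeq2 were used on GRCm38, with versions and settings not given in the sources used here. How reads shared by near-identical genes were counted is not given in the sources used here. The deposited FPKM values were used for levels between genes. Groups were genotype, treatment and title set (8 groups of 3), and 4 value columns of 2 libraries that the labels do not describe were not used. Depth was 39002048 to 82040703 counts per library, and intervals for zeros cover counting error only.

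Tests on the deposited counts used edgeR 4.0.16 (R 4.3.3, TMM scaling, filterByExpr, robust quasi-likelihood fit, contrasts of group means, Benjamini-Hochberg adjustment over 24623 genes, threshold 0.05). The filter used a minimum count of 10, which only some libraries had to reach, and a minimum total of 15 counts. Alternatives used DESeq2 1.42.0 and limma 3.58.1 on log2(FPKM + 1). The test was also run on simulated data with known changes. Named genes were those called with a mean of at least 2 CPM, the 10 with the highest mean CPM and the highest of each class. Members, lists and rules were chosen with earlier results of these data known. Gene models and transcript sequences came from GENCODE M21 and promoters from RefSeq (GRCm38.p6).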

Additional observations from a re-analysis of the deposited data

How the results depend on the processing

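Counts of called histone genes were small and depended on the processing. In wild type, the treatment count of 5 became 6 with DESeq2, 7 with limma on log2(FPKM + 1), 4 without the 5 libraries with the highest Rn7sk, 3 with no filter on low counts, 3 with the stricter filter of 50 counts, 3 with only the libraries compared and 0 with titles without F. It became 1 without the 4 libraries with intestinal transcripts, and 2 without these and the 5 with the highest Rn7sk, an alternative chosen after seeing the data. The fits without the intestinal libraries held no treated WT library without F. Leaving out 1 library gave 2 to 6. In the knockout the count of 1 became 2 with DESeq2, 4 with limma on log2(FPKM + 1), 2 with only the libraries compared and 0 with titles without F. It became 5 without the 5 libraries with the highest Rn7sk and 5 without these and the intestinal ones, and 1 to 3 with 1 library left out. Between genotypes under Ang-II/BAPN, the count of 1 became 2 with DESeq2 and 2 with limma. It became 0 with no filter, the stricter filter, only the libraries compared, titles with F or without F alone, without the intestinal libraries and without both kinds of library, and 0 to 1 with 1 library left out. Genotype under PBS and both interactions stayed at 0 under all alternatives run. The causes were not tested.

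Log2 changes that turned direction were called neither with all libraries nor under the alternative that turned them. In the knockout that of H1f2, 0.02 with all libraries, was -0.000464 with DESeq2 size factors and -0.000461 with DESeq2, -0.11 with F titles, -0.0613 without the high Rn7sk libraries, -0.00787 without the intestinal ones, -0.0677 without both, and -0.13 to 0.24 with 1 library left out. Hist1h2bq in the knockout was -0.11 and the H2bc21 interaction 0.0933 with titles without F. H2ac18 was 3.63 in wild type with titles without F and 0.14 in the knockout with F titles. In wild type H2ac10 was 0.56 with F titles, 1.09 without the intestinal libraries, 0.58 without both kinds and -0.66 to 0.26 with 1 library left out. Without both kinds of library H4c8 in wild type was 0.81 and the H3c13 interaction -1.47.

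The replicate block gave 2 calls in wild type, 1 in the knockout and 0 between genotypes under Ang-II/BAPN. Libraries with the same number did not deviate together (correlations of -0.424 to 0.422 over 36 pairs, 7 above 0.1), so the numbers were not taken to pair samples. Depth limits most genes, since 37 of 68 had a mean below 10 counts.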
